A study of Mus musculus with 4 samples.

Results

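The 10 genes described here are the chains of the IL-10 receptor (Il10ra and Il10rb), the chains of 2 other receptors that signal through STAT3 (Il6ra and Il6st of the IL-6 receptor, and Il21r), STAT3 itself (Stat3), and 4 genes known as targets or brakes of this pathway (Socs3, Pim1, Bcl3 and Nfil3). They were taken as a list by name, 10 of the 32285 genes in the count tables, and were followed through cell classes set by a few transcripts per cell. The cells came from the spleens of 1 pBIC10 mouse and 1 pBIC mouse, both female, in a study of IL-10 made by the B cells of a diffuse large B-cell lymphoma. The labels give the genotypes by these names alone, and the alleles behind them, what drives them and the ages of the mice are not given in the sources used here. Each mouse gave 1 gene expression library and 1 T-cell receptor (TCR) library from droplet sequencing, 4 libraries in all, and sorted live cells had been mixed beforehand to 20% GFP-positive lymphoma cells and 80% GFP-negative cells.

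IL-10 is a cytokine that quiets macrophages and dendritic cells and also acts on T and B cells. It binds IL10RA, which then pairs with IL10RB; the kinases JAK1 and TYK2 attached to these chains phosphorylate STAT3, which enters the nucleus and turns on target genes. IL-6, through IL6RA and the shared chain gp130 (Il6st), and IL-21, through IL21R, use STAT3 as well. SOCS3 is a STAT3 target that blocks signalling at gp130 but leaves the IL-10 receptor largely free, and so acts as feedback on IL-6.

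The pBIC10 library held 14991 barcodes and 147884282 unique molecular identifiers (UMIs, each 1 captured transcript), with a median of 5458 per barcode, and the pBIC library 18129 barcodes and 166941618 UMIs, with a median of 6235. After filters and removal of doublet calls, 14271 pBIC10 and 17375 pBIC cells were used, and 712 barcodes occurred in both libraries. A class kept cells that met 1 gate alone, 53.4% of pBIC10 and 63.1% of pBIC cells, while 13.98% and 6.92% met more than 1. Levels are UMIs of a gene per 1000000 UMIs of a class (CPM), with 95% intervals that cover counting error only. B cells (at least 3 UMIs of Cd79a and Cd79b) numbered 2022 and 3245, CD8 T cells 2549 and 5770, CD4 T cells 250 and 869, Tgfbi macrophages (Tgfbi with at least 10 Lyz2 UMIs) 1528 and 319, and neutrophils 816 and 183, in pBIC10 and pBIC. NK cells (14 and 119) and macrophages of the C1q gate (131 and 48) fell under 50 cells in 1 library, so their levels are given without a ratio. The gate on Flt3 and Zbtb46, genes of dendritic cells, held 310 and 408 cells and carried dendritic, erythroid and T-cell transcripts. Of the dendritic markers listed, Xcr1 (17.1 and 13.6 CPM), Clec9a (19.3 and 11.3), Siglech (36.4 and 32.2) and Itgae (47.4 and 10.1) were highest there. H2-Aa, Cst3, Irf8 and Cd209a did not peak there in both libraries. Ermap, an erythroid gene, stood there at 41.5% and 48.1% of its level in erythroid cells. Cd3e, a T-cell gene, stood there at 11.6% and 8.04% of its CD8 T-cell level, so the class is called the Flt3 or Zbtb46 gate. B cells of pBIC10 held Cd8b1, a CD8 T-cell gene, at 368 CPM against 20.8 CPM in pBIC, and the CD8 gate also requires a TCR beta chain. Erythroid cells (217 and 324) served as a class that should hold little of the immune receptors and so show stray RNA.

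With 1 mouse for each genotype there are no replicates, no test was possible, and genotype, mouse, tumour and library cannot be told apart. A gene was called higher or lower in pBIC10 when the ratio of the 2 libraries was at least 1.5-fold, its counting interval left out no difference, and it had at least 20 UMIs over both.

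Of the 60 pairs of a member and a class, 59 had enough UMIs, and 23 were lower in pBIC10, 6 were higher and 30 were neither, where 23.1% of all genes measured in these 6 classes were lower and 11.7% higher. Of the 6 higher pairs, Il6ra in both kinds of T cell lay, over the whole class, at the erythroid level. Nfil3 in the Flt3 or Zbtb46 gate had a log2 ratio of -0.23 when cells were thinned to 2000 UMIs, which left few of its UMIs. Of the 23 lower pairs, Socs3 in B cells lay at or below the erythroid level, and Il10rb in pBIC10 CD4 T cells overlapped it. Pim1, which erythroid cells hold in plenty, stood at 21.3% and 53.3% of their level in CD8 T cells and at 43.3% in pBIC10 B cells. Under TMM scaling, a normalisation that sets the bulk of genes equal, the split was 16 lower and 8 higher (16.7% and 15.3% of all genes). In Tgfbi macrophages 7 of 10 members were lower in pBIC10 and none higher, where 22.8% of all genes were lower and 7.56% higher by the same rule. TMM scaling left 4 lower in this class, Il6st, Il21r, Stat3 and Bcl3, where 12.2% of all genes were lower and 15.4% higher. Patrolling monocyte genes, 5 in the list, summed there to 226 CPM in pBIC10 and 787 CPM in pBIC. Among the 793 pBIC10 and 76 pBIC macrophages with no UMI of Ace, Treml4 or Cd300e, 3 of these genes, 6 members were lower and none higher (17.9% and 5.06% of all genes): the calls of Il10ra and Socs3 were lost and Il10rb was lower as well. In CD8 T cells 5 members were lower and 2 higher, against 20.9% and 14.6% of all genes, and in CD4 T cells 4 were lower and 2 higher, against 17.3% and 8.46%. B cells had 3 members lower and 1 higher, where 40.6% of all genes were lower and 15.9% higher, so the members' share of lower calls was under the background there. The Flt3 or Zbtb46 gate had 3 lower and 1 higher (20.8% and 7.57% of all genes), and neutrophils had 1 of 9 measured members lower and none higher (8.59% and 15.6%).

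Socs3 and Bcl3 were never higher in pBIC10, and were lower in 4 and 5 of 6 classes. Il21r was lower in 4, Il10rb and Pim1 in 2 each, and Stat3, Il10ra and Il6st in Tgfbi macrophages alone. Nfil3 was higher in 3 classes and lower in none. Il6ra was higher in 3, of which B cells alone stood, over the whole class, above the erythroid level, and lower in 3. The median log2 ratio of the 10 members was -0.74 in Tgfbi macrophages beside -0.21 over all genes, -0.45 beside -0.15 in CD8 T cells, and -0.07 beside -0.18 in CD4 T cells. It was -0.21 beside -0.42 in B cells, -0.08 beside 0.17 in neutrophils and -0.28 beside -0.20 in the Flt3 or Zbtb46 gate. TMM scaling moved all ratios up by 0.33 in B cells, 0.27 in Tgfbi macrophages and 0.15 in the Flt3 or Zbtb46 gate, and by under 0.1 in either direction in the other classes.

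**Figure D1:**
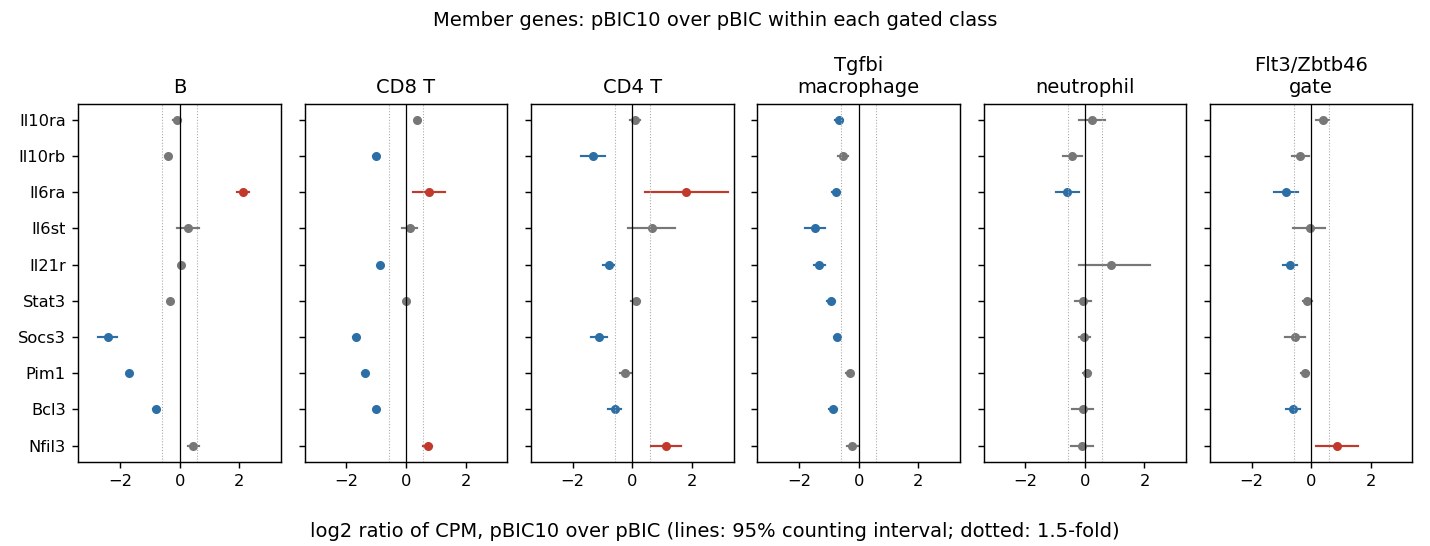
Log2 ratio of CPM, pBIC10 over pBIC, of each member in the 6 classes compared, with 95% counting intervals; red marks genes called higher, blue those called lower, grey the rest, and dotted lines mark 1.5-fold. Most blue points lie in Tgfbi macrophages (7) and CD8 T cells (5), while the neutrophil panel holds 1.

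Il10 (ENSMUSG00000016529), the gene of the ligand, differed most in B cells. It stood at 0.602 CPM in pBIC10 B cells (21 UMIs), against 31.95 CPM in pBIC B cells (1479 UMIs), and at 32.7 CPM in pBIC10 CD8 T cells, against 45.0 CPM in pBIC CD8 T cells. Erythroid cells held 1.58 and 3.20 CPM, so Il10 in pBIC10 B cells was not above the erythroid level, while CD8 T cells of both mice were. Of the 21 UMIs, 10 lay in the 1823 pBIC10 B cells led by 1 light chain segment (0.298 CPM). The other 11 lay in the remaining 199 B cells (8.07 CPM, 4.03 to 14.4), some with no light chain segment seen. The part of stray RNA was not tested.

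Il10ra (ENSMUSG00000032089) encodes the chain that binds IL-10 and carries the STAT3 docking sites. T cells and Tgfbi macrophages held most of it, and lymphoma-rich B cells little. In pBIC10 the order ran from CD8 T cells at 236 CPM (230 to 242) through CD4 T cells at 199 (180 to 220) and Tgfbi macrophages at 129 (124 to 134) to neutrophils at 93.4. Next came the C1q gate at 73.0, NK cells at 69.4 and the Flt3 or Zbtb46 gate at 64.0, whose intervals overlapped each other's and, for the C1q gate and NK cells, that of neutrophils. The C1q class here held 131 of the 876 cells that passed its gate, with a median of 1927 UMIs. With cells of the Tgfbi gate kept, the C1q gate stood at 135 CPM. B cells stood at 24.2 CPM (22.5 to 25.8) and erythroid cells at 14.3 (8.45 to 22.5). In pBIC, Tgfbi macrophages came first at 204 CPM (189 to 220), with intervals that overlapped those of CD4 T cells at 188 and so on to CD8 T cells at 181. CD8 T cells thus held the first place alone in pBIC10, while in pBIC the intervals of neighbouring classes overlapped from the first place down to NK cells.

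Il10ra was lower in pBIC10 than in pBIC in Tgfbi macrophages, at 129 against 204 CPM (log2 -0.66, -0.79 to -0.53). That call was close to the 1.5-fold limit and was lost under 7 alternatives, among them TMM scaling (-0.39) and the use of macrophages without patrolling monocyte transcripts (-0.52), a set chosen after the data were seen. In CD8 T cells it stood at 236 CPM in pBIC10 and 181 CPM in pBIC (log2 0.38, 0.33 to 0.43), short of the limit. B cells of the 2 mice were near each other, at 24.2 and 25.9 CPM (log2 -0.10, -0.23 to 0.03). Most B cells of each library were led by 1 light chain segment, Igkv3-1 in 90.5% of 2015 pBIC10 cells and Igkv8-30 in 96.0% of 3117 pBIC cells. Cells of this dominant light chain held 22.8 CPM in pBIC10 and 24.2 CPM in pBIC, whereas the other B cells held 56.5 and 90.6 CPM. The other B cells (199 and 252) include those with no light chain segment seen. Their median was 3436 and 2798.5 UMIs, against 14034 and 13523 in cells of the dominant light chain. The part of stray RNA in this gap was not tested.

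Il10rb (ENSMUSG00000022969) encodes the second chain, which is also part of the receptors for IL-22 and type III interferons. Unlike Il10ra, its highest level was in neutrophils, 108 CPM (96.2 to 121) in pBIC10 and 145 CPM (118 to 175) in pBIC, and the C1q gate overlapped neutrophils in both mice. It was lower in pBIC10 T cells of both kinds. CD8 T cells held 41.0 CPM in pBIC10 against 82.3 CPM in pBIC, and pBIC was 2.01-fold higher (1.87 to 2.15). CD4 T cells held 31.1 CPM against 77.6 CPM, and pBIC was 2.49-fold higher (1.91 to 3.31). Both calls held under every alternative tried. At 27.7 CPM (19.3 to 38.6) in pBIC10 and 30.7 CPM (25.3 to 36.8) in pBIC, erythroid cells were not far below: the intervals of CD4 T cells, B cells (31.7) and the Flt3 or Zbtb46 gate (31.1) in pBIC10 overlapped the erythroid one. Tgfbi macrophages stood at 71.6 CPM in pBIC10 and 104 CPM in pBIC (log2 -0.53, -0.71 to -0.36), short of the limit.

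**Figure D2:**
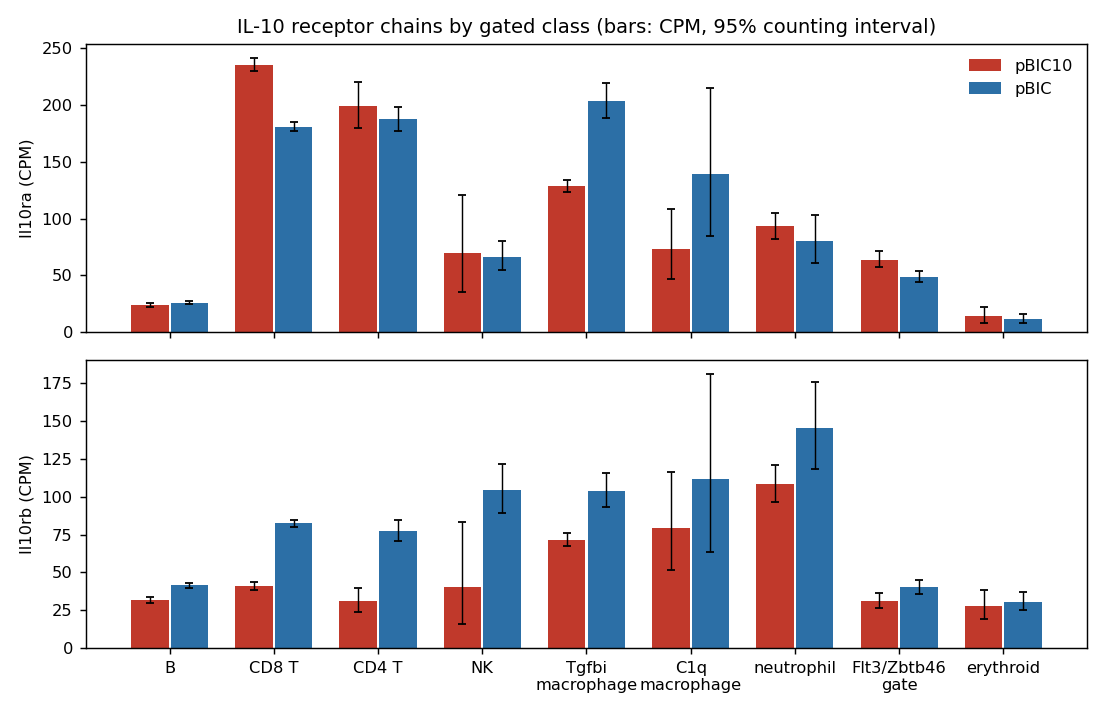
CPM of Il10ra (top) and Il10rb (bottom) in each class, pBIC10 left and pBIC right, with 95% counting intervals. Il10ra in CD8 T cells is 236 CPM in pBIC10 and 181 CPM in pBIC, whereas Il10rb there is 41.0 and 82.3 CPM.

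A working receptor needs both chains, so cells were thinned to 5000 UMIs each and scored for transcripts of both. Both were seen in 13.02% of pBIC10 CD8 T cells (11.5 to 14.7), against 21.4% of pBIC CD8 T cells (20.2 to 22.7). The Il10ra share in these cells was 64.2% in pBIC10 and 57.5% in pBIC, and the Il10rb share 18.9% and 35.98%, so the shares of the 2 chains differed in opposite directions. CD4 T cells gave 9.02% (4.75 to 15.2) and 18.97% (15.6 to 22.7), and Tgfbi macrophages 14.5% (12.6 to 16.5) and 22.7% (17.9 to 28.1), in pBIC10 and pBIC. B cells gave 1.37% (0.862 to 2.07) and 3.16% (2.53 to 3.90), with 0 of 50 pBIC10 and 1.55% of pBIC erythroid cells as the background. The exact interval of that 0 reaches 7.11%, so the B-cell shares could not be told from stray RNA at this depth. Without thinning the shares were 26.3% and 34.7% in CD8 T cells (median 7172 and 6566 UMIs), 16.4% and 29.6% in CD4 T cells, 36.7% and 50.5% in Tgfbi macrophages, and 12.9% and 10.97% in B cells. Thinning left out 783 and 1609 CD8 T cells, 117 and 363 CD4 T cells, and 235 and 46 Tgfbi macrophages of pBIC10 and pBIC.

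**Figure D3:**
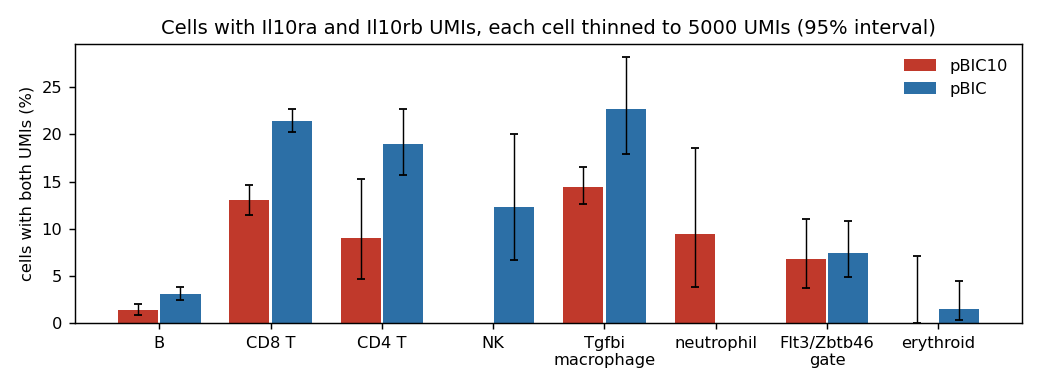
Share of cells with UMIs of both Il10ra and Il10rb after thinning to 5000 UMIs, pBIC10 left and pBIC right, with 95% Clopper-Pearson intervals; classes with under 50 such cells in a library have no bar. Shares in CD8 T cells are 13.02% in pBIC10 and 21.4% in pBIC.

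Il6ra (ENSMUSG00000027947), which binds IL-6, was mainly a myeloid gene here, with B cells of pBIC10 as an exception. It was highest in Tgfbi macrophages, at 92.3 CPM in pBIC10 and 156 CPM in pBIC, and next in neutrophils, at 73.6 and 112 CPM. Both myeloid classes were lower in pBIC10, by 0.76 and 0.60 on the log2 scale (the macrophage call was lost under TMM scaling, at -0.48), and so was the Flt3 or Zbtb46 gate at 13.4 against 24.0 CPM. B cells ran the other way: 23.8 CPM in pBIC10 against 5.44 CPM in pBIC, 4.37-fold higher (3.79 to 5.06). Erythroid cells held 4.75 CPM (1.74 to 10.3) in pBIC10 and 0.534 CPM in pBIC, well under the pBIC10 B-cell level, and the ratio in cells of the dominant light chain (23.6 and 5.05 CPM) was of the same size. In T cells the gene met the rule for higher as well. Levels were low, 2.15 and 1.25 CPM in CD8 T cells and 5.61 and 1.59 CPM in CD4 T cells, with intervals that overlapped the erythroid ones. In pBIC, CD8 T cells whose TCR clonotype was seen once held 5.92 CPM (4.14 to 8.19), above the erythroid interval (0.0646 to 1.93). Those of clonotypes with 10 or more cells held 0.460 CPM. In pBIC10 the same sets held 2.71 and 2.53 CPM. The part of stray RNA in the T-cell ratios was not tested.

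Il6st (ENSMUSG00000021756), the gene of gp130, was scarce in all classes. Tgfbi macrophages held 13.6 CPM (11.9 to 15.4) in pBIC10 against 37.5 CPM (31.2 to 44.8) in pBIC, and pBIC was 2.77-fold higher (2.21 to 3.46). This was the lowest member ratio in that class and it held under every alternative. No other class differed by the rule: CD8 T cells stood at 8.96 and 8.23 CPM and B cells at 3.72 and 3.07 CPM. Neutrophils had 9 UMIs in pBIC10 and 0 in pBIC, too few for a ratio.

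Il21r (ENSMUSG00000030745), the receptor of the helper T-cell cytokine IL-21, was highest by value in T and B cells. NK cells held it at 9.01% of the CD8 T-cell level in pBIC10 and 33.5% in pBIC. The pBIC10 NK class had 14 cells, in which 3 UMIs make 17.3 CPM, so its share rests on very few UMIs. In pBIC10, CD4 T cells at 135 CPM, CD8 T cells at 128 CPM and B cells at 123 CPM had overlapping intervals, whereas in pBIC both kinds of T cell, at 233 and 236 CPM, stood above B cells at 120 CPM. B cells of pBIC10 and pBIC differed by less than counting error (log2 0.04, -0.02 to 0.10). CD8 T cells were lower in pBIC10 (log2 -0.88, -0.94 to -0.82), as were CD4 T cells (-0.79, -0.98 to -0.60). Tgfbi macrophages had 39.9 CPM in pBIC10 against 99.4 CPM in pBIC (log2 -1.32, -1.51 to -1.12), the call of this gene that held under every alternative. T-cell markers, 6 in the list, summed in these macrophages to 44.9 CPM in pBIC10 and 156 CPM in pBIC, and their part in the Il21r ratio was not tested. The Flt3 or Zbtb46 gate was lower too, at 39.0 against 64.0 CPM, a call lost with overlapping gates (log2 -0.01). In that gate the T-cell markers summed to 466 CPM in pBIC10 and 365 CPM in pBIC. The part of T-cell RNA in its ratios was not tested.

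Stat3 (ENSMUSG00000004040) itself was present in every class. In pBIC10, CD4 T cells at 232 CPM, neutrophils at 204 CPM, CD8 T cells at 202 CPM and NK cells at 185 CPM were neighbours with overlapping intervals. B cells held 72.9 CPM in pBIC10 and 90.8 CPM in pBIC, the lowest values among the immune classes. CD8 T cells had the same level in the 2 libraries within counting error, 202 and 204 CPM (log2 -0.01, -0.06 to 0.04), although Socs3, Pim1 and Bcl3 differed there. The one call was in Tgfbi macrophages, with 123 CPM (118 to 128) in pBIC10 against 234 CPM (218 to 251) in pBIC (log2 -0.93, -1.05 to -0.81). Without patrolling monocyte transcripts it was 112 against 203 CPM (log2 -0.85). S100a9, a neutrophil gene, stood in Tgfbi macrophages at 6.99% of its neutrophil level in pBIC10 and 1.74% in pBIC, and the part of neutrophil RNA in the ratios of this class was not tested.

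Sequences at the start sites of Socs3 and Il21r are shown because each was the one promoter among the members to hold a palindrome of the kind that STAT dimers bind. The RefSeq table of promoters (build GRCm38.p6, 250 bases before to 50 bases after each start) had entries for 8 of the 10 members, 9 promoters in all because Pim1 has 2. Il10ra and Il10rb had no entry. The motif TTCNNNGAA, which reads the same on both strands, was found in the Socs3 promoter (chr11:117969317-117969616, - strand) as TTCTTAGAA, with its first base 154 bases before the start. The shorter TTCNNGAA, which cannot overlap a copy of TTCNNNGAA that starts at the same base, was found in the Il21r promoter (chr7:125603179-125603478, + strand), 241 bases before the start. Of all 32851 promoters in the table, 2726 (8.30%) held TTCNNNGAA and 2799 (8.52%) held TTCNNGAA. A match describes letters in this window and no binding was measured. Capitals mark the motif in each sequence, written 5′ to 3′ on the strand of the gene.
Socs3: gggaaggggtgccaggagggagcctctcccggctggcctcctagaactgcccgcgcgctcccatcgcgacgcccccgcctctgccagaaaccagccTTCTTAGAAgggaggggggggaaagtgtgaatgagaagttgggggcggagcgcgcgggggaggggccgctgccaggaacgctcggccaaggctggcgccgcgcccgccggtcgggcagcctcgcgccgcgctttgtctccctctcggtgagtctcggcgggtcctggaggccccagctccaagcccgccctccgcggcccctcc
Il21r: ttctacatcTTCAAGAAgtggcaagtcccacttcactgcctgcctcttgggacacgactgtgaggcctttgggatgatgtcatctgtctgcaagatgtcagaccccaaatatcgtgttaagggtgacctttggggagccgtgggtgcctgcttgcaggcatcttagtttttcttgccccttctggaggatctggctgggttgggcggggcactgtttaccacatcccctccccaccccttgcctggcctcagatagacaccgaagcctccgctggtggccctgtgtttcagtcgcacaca

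Socs3 (ENSMUSG00000053113), the feedback inhibitor, was lower in pBIC10 in B cells, both kinds of T cell and Tgfbi macrophages. CD8 T cells held 35.7 CPM (33.4 to 38.2) in pBIC10 against 116 CPM (113 to 119) in pBIC, and pBIC was 3.23-fold higher (3.01 to 3.47). In CD4 T cells the levels were 71.4 and 155 CPM, and pBIC was 2.17-fold higher (1.81 to 2.61). Neutrophils carried the highest Socs3 of all classes and hardly differed, with 454 CPM (430 to 480) in pBIC10 and 459 CPM (411 to 511) in pBIC (log2 -0.02, -0.19 to 0.16). Tgfbi macrophages held 179 CPM in pBIC10 and 296 CPM in pBIC (log2 -0.73), a call lost under TMM scaling (-0.45) and without patrolling monocyte transcripts (-0.46).

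B cells held little Socs3, 2.95 CPM in pBIC10 against 15.8 CPM in pBIC, and pBIC was 5.35-fold higher (4.35 to 6.64). The pBIC10 level was below the erythroid one of 5.54 CPM and the pBIC level was at the erythroid 14.9 CPM. Erythroid cells also held more Cd3e, a T-cell gene, than B cells did, 59.4 against 10.5 CPM in pBIC10 and 98.7 against 47.0 CPM in pBIC. A match with their level thus cannot tell stray Socs3 from that of B cells. Against CD8 T cells, Cd3e stood in B cells at 0.842% in pBIC10 and 2.99% in pBIC, and Socs3 at 8.25% and 13.7%. The part of stray RNA was not tested. RNA of neutrophils was measurable in the same cells: S100a9, a neutrophil gene, stood in pBIC10 B cells at 0.529% of its neutrophil level and Socs3 at 0.650%, whereas in pBIC B cells the shares were 0.0156% and 3.44%. Within the B class, cells of the dominant light chain held 2.15 CPM in pBIC10 and 14.0 CPM in pBIC, and the other B cells 22.7 and 83.8 CPM. In each library the cells of the dominant light chain thus held less Socs3 than the other B cells. These other cells, some with no light chain segment seen, had a median of 3436 and 2798.5 UMIs, against 14034 and 13523.

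Pim1 (ENSMUSG00000024014), a survival kinase induced by STATs, differed most in B cells, which held 152 CPM (148 to 156) in pBIC10 against 500 CPM (494 to 507) in pBIC. The ratio was -1.72 on the log2 scale (-1.76 to -1.67), or -1.30 relative to the median of all genes. Cells of the dominant light chain gave 152 CPM in pBIC10 and 502 CPM in pBIC. CD8 T cells were lower as well, at 74.8 against 196 CPM (log2 -1.39, -1.46 to -1.32), while CD4 T cells, at 139 and 163 CPM, were not. Neutrophils, the highest class, stood at 808 and 770 CPM. Pim1 is no lymphoid gene alone: erythroid cells held 351 and 368 CPM.

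Bcl3 (ENSMUSG00000053175), an IκB family partner of NF-κB that is induced by IL-10 in macrophages, was lower in pBIC10 in every compared class except neutrophils. Tgfbi macrophages held 101 CPM in pBIC10 against 183 CPM in pBIC (log2 -0.87), CD8 T cells 68.2 against 137 CPM (-1.004), CD4 T cells 96.3 against 146 CPM (-0.60), B cells 40.6 against 70.6 CPM (-0.80), and the Flt3 or Zbtb46 gate 40.3 against 61.3 CPM (-0.61). The CD8 call held under every alternative, while those of B cells, CD4 T cells and the Flt3 or Zbtb46 gate were lost under TMM scaling (-0.47, -0.52 and -0.46). Neutrophils stood at 117 and 124 CPM.

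Nfil3 (ENSMUSG00000056749), a transcriptional repressor that IL-10 induces in macrophages, was the one member with calls only of higher. CD4 T cells held 29.1 CPM in pBIC10 against 13.2 CPM in pBIC, 2.20-fold higher (1.54 to 3.12), and CD8 T cells 25.6 against 15.5 CPM, 1.65-fold higher (1.49 to 1.84). Neutrophils and Tgfbi macrophages, which had the highest levels, stood at 107 and 114 CPM and at 75.5 and 87.5 CPM. In the Flt3 or Zbtb46 gate 37 and 34 UMIs made 7.52 and 4.12 CPM, a call lost among its cells with H2-Aa and no erythroid transcripts (6.25 and 4.06 CPM). Thinning to 2000 UMIs, which kept 253 and 378 cells of this gate, gave log2 -0.23. Few Nfil3 UMIs were left, so no direction can be read from that value. Erythroid cells held 0 UMIs in pBIC10 and 6 in pBIC.

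**Figure D4:**
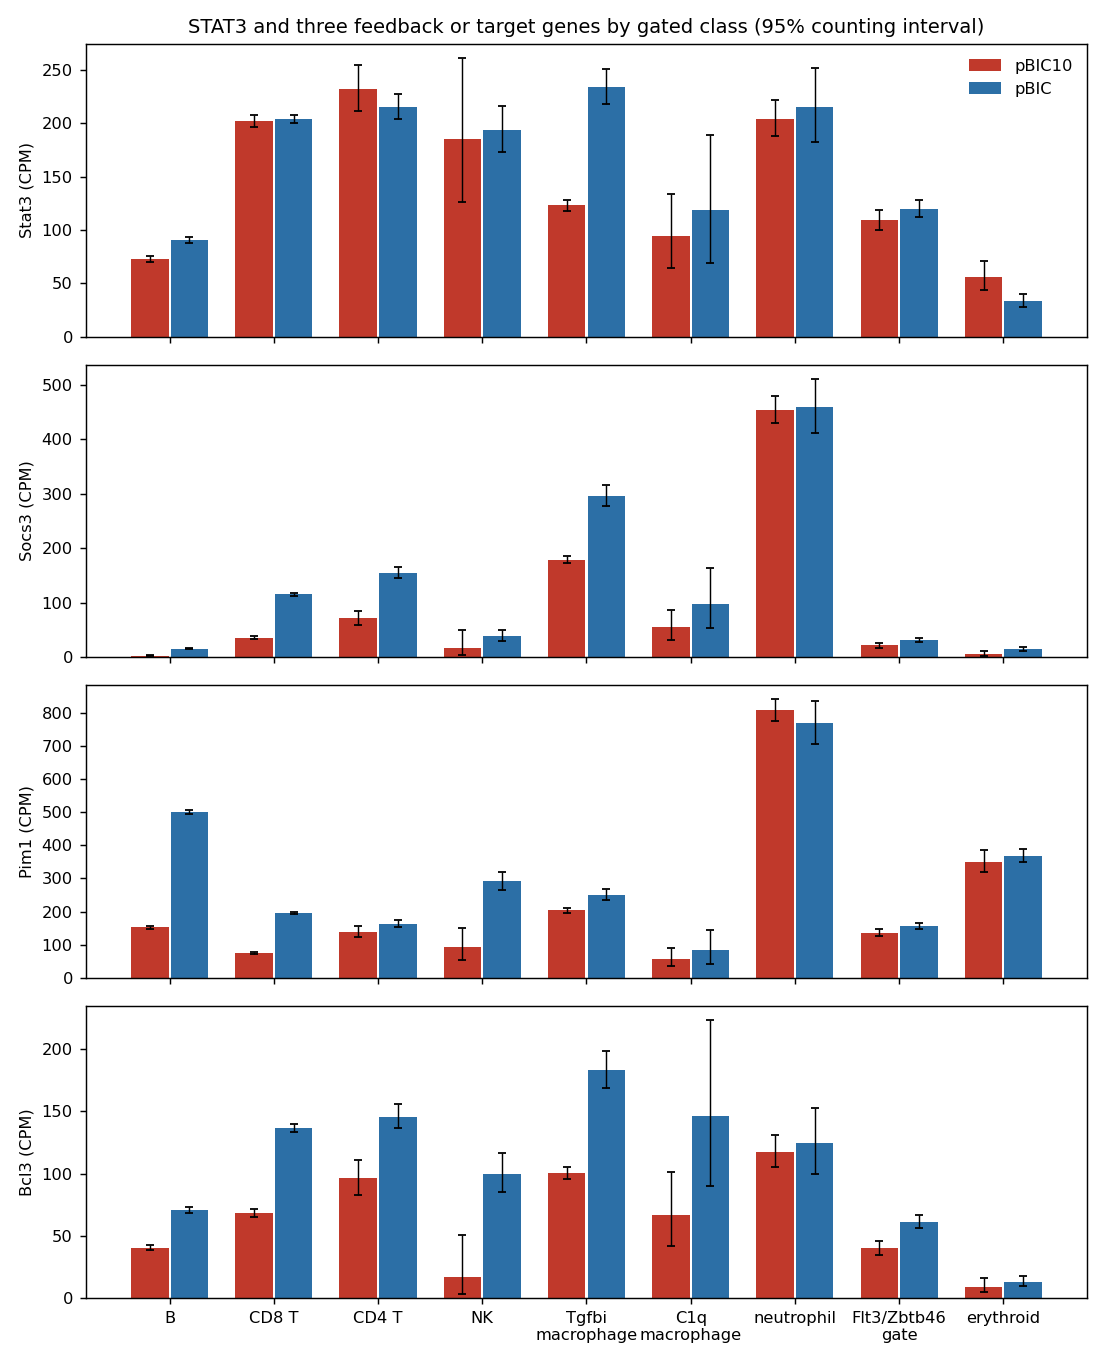
CPM of Stat3, Socs3, Pim1 and Bcl3 in each class, pBIC10 left and pBIC right, with 95% counting intervals. Neutrophil bars stand at like heights for all 4 genes, whereas Socs3 in CD8 T cells is 35.7 CPM in pBIC10 and 116 CPM in pBIC.

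Macrophages of the C1q gate could be compared only when cells that also met the Tgfbi gate were kept, chosen once the values were known, which gave 750 pBIC10 and 133 pBIC cells. Of these, 619 pBIC10 and 85 pBIC cells lay in both macrophage gates and held 1155 of 1179 and 175 of 195 Il10ra UMIs, so the values mostly come from cells of the Tgfbi gate. Of the members, 4 were lower in pBIC10 and none higher, where 18.3% of all genes were lower and 5.41% higher. Bcl3 had 88.1 CPM in pBIC10 against 199 CPM in pBIC, Il21r 46.4 against 98.8 CPM, Il6st 16.9 against 36.3 CPM, and Il10rb 76.5 against 127 CPM. Il10ra stood at 135 and 165 CPM, Socs3 at 215 and 313 CPM. Narrowing the Flt3 or Zbtb46 gate to cells with at least 5 H2-Aa UMIs and no erythroid transcripts left 145 and 202 cells, with Il6ra, Il6st, Il21r and Bcl3 lower and none higher (20.6% and 5.78% of all genes). In that narrowed gate Bcl3 was 54.4 CPM in pBIC10 against 108 CPM in pBIC, and Il10ra 77.2 and 85.8 CPM.

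CD8 T cells were divided by the size of their clonotype in the TCR library. In pBIC10, Il10ra stood at 287 CPM in cells of clonotypes with 10 or more cells (800 cells) and at 177 CPM in cells of clonotypes seen once (761 cells), a log2 difference of 0.69 (0.59 to 0.79). In pBIC the same classes stood at 182 and 167 CPM (log2 0.12, 0.02 to 0.22), with 3666 and 740 cells. The 2 libraries were thus near each other among cells of clonotypes seen once and apart among those of 10 or more. The sizes are counts of cells in TCR libraries with 3659 pBIC10 and 8145 pBIC barcodes that had a TCR beta chain. A given size is therefore a larger share of the pBIC10 library. Nfil3 was also higher in expanded cells by value, 31.4 and 21.5 CPM in pBIC10 and 17.2 and 8.87 CPM in pBIC. Socs3 leaned the other way, at 32.8 and 42.9 CPM in pBIC10 and 110 and 125 CPM in pBIC, and its gap between the libraries was present at each clonotype size. These cells come from 1 mouse each and are not replicates.

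**Figure D5:**
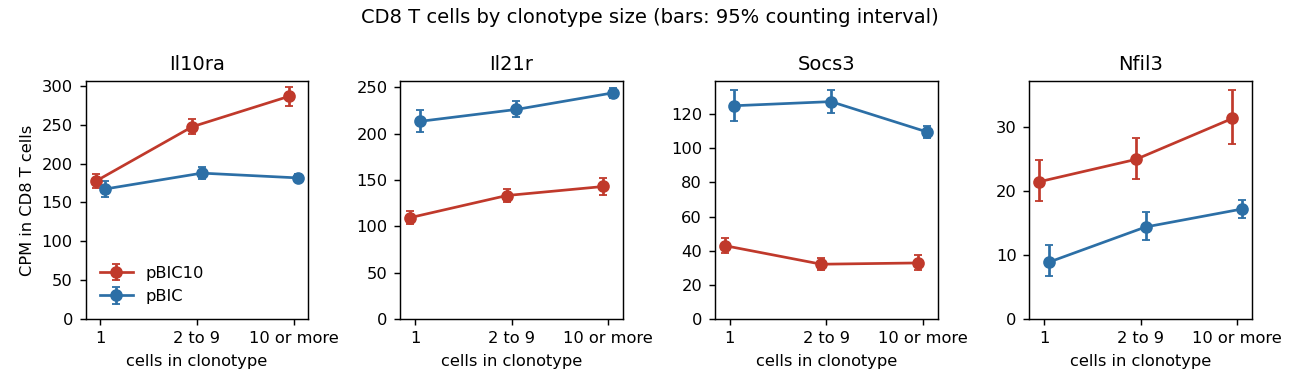
CPM of Il10ra, Il21r, Socs3 and Nfil3 in CD8 T cells by clonotype size, with 95% counting intervals, pBIC10 in red and pBIC in blue. Il10ra in clonotypes of 10 or more cells is 287 CPM in pBIC10 and 182 CPM in pBIC, against 177 and 167 CPM in clonotypes of 1 cell.

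Division state and Il10 expression gave further splits of the same cells. Dividing CD8 T cells (with a Mki67 or Top2a UMI) held less Socs3 than the others in both libraries, 29.4 and 47.3 CPM in pBIC10 and 95.04 and 165 CPM in pBIC, and also less Il10ra, 206 and 289 CPM in pBIC10 and 162 and 228 CPM in pBIC. Cells with an Il10 UMI, 348 in pBIC10 and 791 in pBIC, held more Nfil3 than those without, 46.3 and 21.9 CPM in pBIC10 (log2 1.08, 0.83 to 1.34) and 29.7 and 12.6 CPM in pBIC (log2 1.23, 1.01 to 1.45). Socs3 in cells with an Il10 UMI was 52.8 CPM, against 32.6 CPM without one, in pBIC10, but 119 and 115 CPM in pBIC. T cells with a Foxp3 UMI, a marker of regulatory T cells, numbered 103 in pBIC10 and 47 in pBIC, so values are given for pBIC10 alone. Of the 103, 70 lay in the CD8 class and 33 in the CD4 class. Together they held Socs3 at 30.5 CPM and Il10ra at 193 CPM.

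Around the members, 69 genes of the pathway were counted in 5 lists, to be read beside the 23.1% of all genes lower and 11.7% higher over the same 6 classes. Kinases and STATs had 28 of 60 measured pairs lower in pBIC10 (46.7%) and 1 higher (1.67%), and in Tgfbi macrophages, where 22.8% of all genes were lower, 8 of 10 were lower, among them Jak3, a kinase of the common gamma chain receptors, at 17.6 CPM in pBIC10 against 47.9 CPM in pBIC. Brakes of the pathway had 19 of 59 pairs lower (32.2%) and 10 higher (16.9%). Cish, a STAT5 target and inhibitor, was higher in pBIC10 Tgfbi macrophages, at 27.3 against 6.40 CPM, and in neutrophils, at 78.3 against 20.7 CPM. Its calls were also higher in the Flt3 or Zbtb46 gate but lower in both kinds of T cell. Ptpn6, the phosphatase SHP-1, was lower in pBIC10 B cells, at 303 against 825 CPM. Response genes outside the members had 41 of 158 pairs lower (25.9%), near the share of all genes, and 29 higher (18.4%). Among the higher were Fcgr1 and Il1r2, known from myeloid cells, in both B and CD8 T cells. The neutrophil gene S100a9 stood at 372 CPM in pBIC10 against 14.0 CPM in pBIC in B cells, and at 328 against 51.9 CPM in CD8 T cells. The part of stray myeloid RNA in the higher calls was not tested. Maf, a driver of Il10 in T cells, stood in CD8 T cells at 66.3 CPM in pBIC10 against 206 CPM in pBIC. Ligands had 7 of 25 pairs lower (28%) and 8 higher (32%), with Osm, a gp130 ligand, in neutrophils at 410 CPM in pBIC10 against 171 CPM in pBIC. Osm was also higher in B cells, Tgfbi macrophages and the Flt3 or Zbtb46 gate, but lower in both kinds of T cell. Receptors of the same families had 10 of 26 pairs lower (38.5%) and 7 higher (26.9%), with Il27ra in CD8 T cells at 41.1 against 161 CPM.

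Across the 14 profiles of classes and libraries with at least 50 cells, the members did not form one pattern. The closest pair was Bcl3 with Socs3 (Pearson r = 0.84 of log2 of CPM + 10) and the most opposed was Il21r with Il6ra (r = -0.67); Il10ra and Il10rb had r = 0.26. Among 5493 genes with at least 50 CPM in a profile, those most like Il10ra were Mapkapk3 (r = 0.92), Smpdl3b, Ifngr1, Tmem50a and Fyb. Those most like Stat3 were Cast (r = 0.94), Myh9, Sntb2, Crebbp and Nabp1, and those most like Socs3 were Vsir (r = 0.97), Mtmr6, Cdk2ap2, Svil and Gnai2. Profiles of 1 library share its depth and stray RNA, and the values describe likeness over these profiles only.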

How the data were processed

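Gene expression was measured in 1 pBIC10 and 1 pBIC spleen with the 10x 5' v2 kit. The authors deposited raw UMI counts for each gene in each barcode, made with Cell Ranger, version 3.0.1 on GRCm39 per the submitters' processing notes and 5.0.1 per the file headers, a difference that was not resolved. Their deposited TCR tables list productive chains with counts, and for each clonotype its fraction of the cells that have one. Only barcodes called as cells were deposited.

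Cells needed 200 detected genes and a mitochondrial share below 10% of UMIs (14667 pBIC10 and 17871 pBIC barcodes passed). Scrublet in scanpy 1.11.5, at an expected rate of 0.08, set a threshold of 0.7184 in pBIC that called 0 doublets, so a score above 0.3 was used in both after this was seen, which removed 396 and 496 barcodes. T gates needed a productive TRB row. CD8 T cells needed a Cd8a or Cd8b1 UMI, and CD4 T cells a Cd4 UMI with neither of these; NK cells needed Ncr1, the C1q gate 10 UMIs of C1qa, C1qb and C1qc, and neutrophils Csf3r with 10 S100a8 UMIs. Class sums gave CPM with exact Poisson intervals, ratios had exact conditional binomial intervals, and shares had Clopper-Pearson intervals (95%, scipy 1.17.1), all for counting error only. Ratios were checked on simulated data. Alternatives included TMM scaling (edgeR 4.0.16). Named genes were all members, up to 2 list genes per direction in a class, and the 5 genes most like Il10ra, Stat3 and Socs3. The members and lists were chosen with earlier results of these data known.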

Additional observations from a re-analysis of the deposited data

How the results depend on the processing

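The 59 measured ratios were recomputed under 11 other settings, and the 10 ratios of 1 class under each of 5 more; 4 of these 16 were chosen after the data were seen. Of the 29 ratios called higher or lower, 12 kept their call under all that applied to their class: Il6ra, Socs3 and Pim1 in B cells, Il10rb, Socs3, Pim1 and Bcl3 in CD8 T cells, Il10rb, Socs3 and Nfil3 in CD4 T cells, and Il6st and Il21r in Tgfbi macrophages. Among these, Socs3 in B cells lay at or below the erythroid level, and Il10rb in pBIC10 CD4 T cells overlapped it. Pim1 in CD8 T cells of both libraries and in pBIC10 B cells was also below the erythroid level. Requiring a 2-fold ratio left 3 pairs of a member and a class higher in pBIC10 (6 at 1.5-fold) and 10 lower (23), and 62 pairs of the other pathway lists lower (105). No other setting moved these counts by over 1.5 times. The Nfil3 ratio in the Flt3 or Zbtb46 gate, 0.87 on the log2 scale, turned to -0.23 when cells were thinned to 2000 UMIs. Few of its UMIs were left then, so no direction can be read. No other called ratio changed sign. Leaving out the 712 barcodes found in both libraries ended 1 call, of Bcl3 in CD4 T cells (log2 -0.58), and keeping doublet calls or lowering the mitochondrial limit to 5% ended none. The cause of these changes was not tested. No paired analysis was possible because each genotype has 1 mouse and 1 gene expression library, and for the same reason no replicate could be left out. Depth left Il6st in neutrophils under 20 UMIs, and NK cells, the C1q gate and the 47 Foxp3-positive pBIC T cells fell under 50 cells in a library.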
